A study of Homo sapiens with 8 samples.

Results

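The values of 6 features in 4 myeloid genes were taken from a comparison of N6-methyladenosine (m6A) in RNA between HL-60 cells given decitabine and HL-60 cells given DMSO. The genes are CSF2RB and CSF3R, which encode growth factor receptor subunits, FPR2, a chemotactic receptor, and GFI1, a transcriptional repressor of the granulocytic lineage. They were chosen by name, and every row of the authors' deposited table that carries 1 of these 4 names was taken, which gave 6 of its 4626 features and 4 of its 3114 gene names. CSF2RB has 3 features and the other genes have 1 each, as do 69.6% of all listed genes.

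HL-60 is an established human promyelocytic leukaemia line, labelled here as wild type. Decitabine, a deoxycytidine analogue that traps DNA methyltransferases, was given on 3 occasions (at 0, at 24 and at 48 hours, each to 100 nM). Control cells received DMSO, and RNA was taken at 72 hours. Fragments of total RNA were pulled down with an anti-m6A antibody, and libraries were made from the pulled-down RNA and from the input. There were 4 groups of 2 libraries (m6A and input, with decitabine and with DMSO), and the labels describe the cultures as plated in duplicate.

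The authors' deposited table gives a log ratio and a p-value per feature and no value per library. No replicate spread, level or depth can therefore be attached to any value below, and whether a difference exceeds the spread between cultures could not be examined beyond the deposited p-value. The sources used here do not say which treatment is the numerator. The deposited table carries the name of decitabine, but that does not settle the orientation. Features are called positive or negative here, and a fold is the larger arm over the smaller. The table lists features that had already passed a threshold (its largest p-value was 0.00455), so a gene or window outside it has no value here. A ratio may hold a difference in RNA level as well as in methylation, because no source used here says how input was corrected for.

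m6A is placed on RNA by a complex around METTL3 and METTL14, is bound by YTH-domain proteins, and is known to bear on the splicing, translation and decay of the transcripts that carry it. CSF2RB encodes the signalling beta subunit shared by the receptors for GM-CSF, interleukin-3 and interleukin-5, which signal through JAK2 and STAT5. CSF3R encodes the receptor for G-CSF, the main growth factor of neutrophils. FPR2 encodes a G protein-coupled receptor for formylated bacterial peptides and other ligands that guides phagocytes. GFI1 encodes a zinc finger repressor that recruits KDM1A and RCOR1 and holds progenitors to the granulocytic fate.

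The 4 genes did not share a direction. Of the 6 features, 3 were positive and 3 negative in the authors' deposited table. Over all 4626 listed features 56.3% were positive, so the share among the myeloid genes lay near the background. Represented by the feature with its smallest p-value, CSF2RB and GFI1 were positive and CSF3R and FPR2 negative, against 58.9% positive and 41.1% negative among all 3114 listed genes. The median log ratio (natural log) of the 6 features was -0.80, against 0.78 over all listed features. Over the 4 genes it was also -0.80, against 0.93 over all listed genes. Both medians are the midpoint between FPR2 (-2.28) and GFI1 (0.68), so they are the same result and no member lies near them. With so few members the median describes them and nothing more. The sizes ran from 1.97-fold in GFI1 to 51.5-fold in CSF2RB. Ratios of 10-fold or more were 3 of the 6 (2 in CSF2RB and 1 in CSF3R), against 38.5% of all listed features. A p-value under 0.001 was given for 5 of the 6, against 52.6% of the table.

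**Figure D1:**
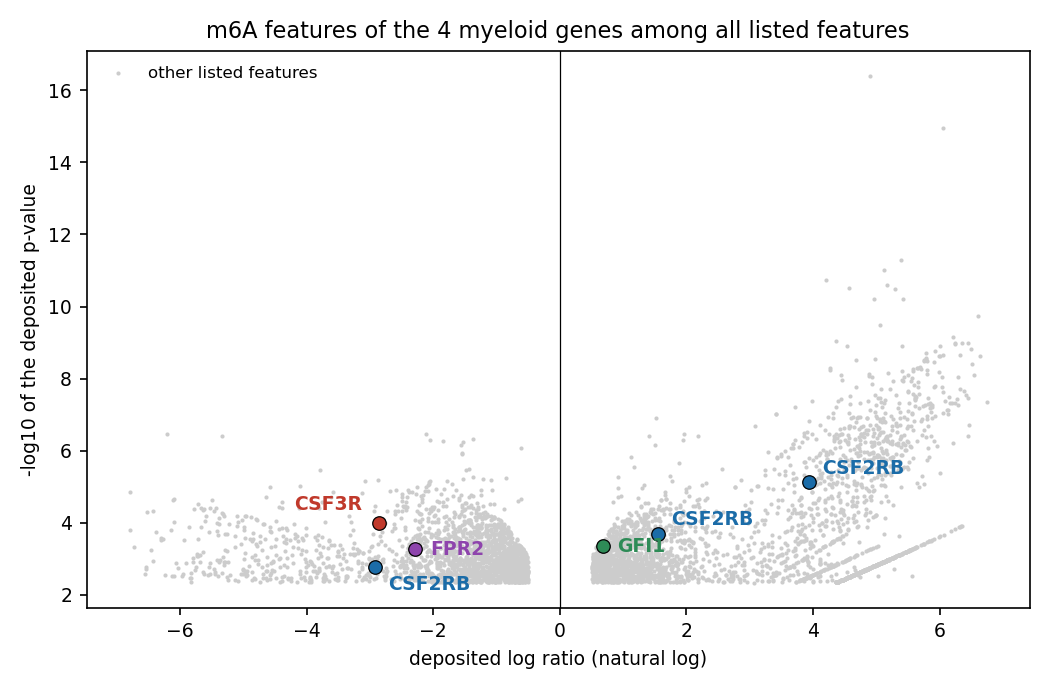
Each point is a listed feature, with the deposited log ratio (natural log) on the horizontal axis and -log10 of the deposited p-value on the vertical axis. The 6 features of the myeloid genes are coloured by gene, all others are grey, and a single feature beyond the axis is not drawn. CSF2RB has points on both sides of 0, CSF3R and FPR2 lie on the negative side, and GFI1 lies close to the smallest positive ratios listed.

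CSF2RB, the shared receptor beta subunit, carried large features of opposite sign a short distance apart. Its 3 features (ENSG00000100368.14, plus strand of chromosome 22, hg38) covered 50 nt each and lay within 400 nt, which is 1.49% of its 26812-nt gene span. The first, at 36937795 to 36937844, was negative at 18.4-fold by the authors' deposited table, with a natural log ratio of -2.91 and p = 0.0017. The second, at 36937995 to 36938044, was positive at 51.5-fold by the authors' deposited table, with a natural log ratio of 3.94 and p = 7.5e-06. The third, at 36938145 to 36938194, was also positive by the authors' deposited table, at 4.73-fold with a natural log ratio of 1.55 and p = 0.0002. Signal was thus higher in one arm at the upstream window and in the other arm at both downstream windows of the same gene. The middle feature was 10.9 times the fold of the last. Between the first and the second lay 150 nt, the length of 3 such windows, and between the second and the third 100 nt, the length of 2, none of which is listed.

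**Figure D2:**
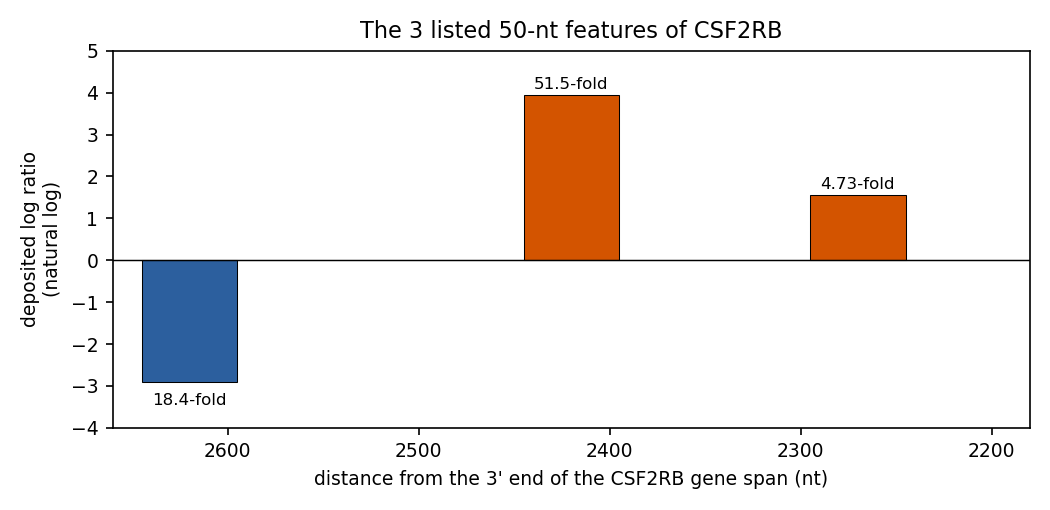
Bars give the deposited log ratio (natural log) of the 3 listed features of CSF2RB against their distance in nt from where the gene span ends (3'), and each bar is as wide as its 50-nt feature. The upstream feature is negative (18.4-fold) and the middle and downstream features are positive (51.5-fold and 4.73-fold).

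The place of these values in the table differed by feature. Of the 2604 positive features, 37.7% had a larger fold than the 51.5-fold feature of CSF2RB and 60.8% a larger one than its 4.73-fold feature. Of the 2022 negative features, 17.7% exceeded its 18.4-fold feature. By p-value the 51.5-fold feature ranked 510 in the authors' deposited table, the 4.73-fold feature 1255 and the negative feature 3113. The negative feature therefore had the largest p-value of the 6, above 67.3% of the table.

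Mixed signs in a gene with 3 features were common. Of all listed genes 10.9% had 3 features or more. Of the 212 genes with exactly 3, 162 (76.4%) held both signs and 94 (44.3%) had 2 positive and 1 negative, as CSF2RB did. Neighbouring features of a gene whose starts lay within 200 nt had opposite signs in 148 of 291 pairs (50.9%). Pairs with opposite signs and both ratios at 10-fold or more were 17 of the 291 (5.84%), and the first pair of CSF2RB was 1 of them. At any distance, 9.08% of the 947 genes with more than 1 feature held both signs at 10-fold or more. The 200-nt distance and the 10-fold limit were chosen after the values of CSF2RB were seen, and no test was made.

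CSF3R, the G-CSF receptor, had a single large negative feature. The feature (ENSG00000119535.18, minus strand of chromosome 1, 36473743 to 36473792, hg38) stood at 17.5-fold by the authors' deposited table, with a natural log ratio of -2.86 and p = 9.9e-05. Of the 2022 negative features 367 (18.2%) had a larger fold, and 21.0% of all features had a smaller p-value. In size the CSF3R feature stood beside the negative feature of CSF2RB (18.4-fold), and opposite to the leading feature of that gene. The ratios carry no error, so the order of 17.5-fold and 18.4-fold has no meaning here.

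FPR2, the formyl peptide receptor, also had a single negative feature. In the authors' deposited table it stood at 9.80-fold (ENSG00000171049.9, plus strand of chromosome 19, 51769439 to 51769488, hg38), with a natural log ratio of -2.28 and p = 0.00054. Larger folds were listed for 23.8% of the negative features, and smaller p-values for 40.3% of all features. Both members with a single negative feature were thus above the median negative fold of the table, 3.95-fold.

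GFI1, the granulocytic repressor, had the smallest ratio of the 4 genes. Its only feature (ENSG00000162676.12, minus strand of chromosome 1, 92475229 to 92475278, hg38) was positive at 1.97-fold in the authors' deposited table, with a natural log ratio of 0.68 and p = 0.00043. Of the 2604 positive features 93.4% had a larger fold. The smallest fold listed anywhere was 1.65, so the GFI1 feature lay near the lower limit of the table in size, though not in p-value, where 36.9% of features had a smaller one. The median positive feature was at 10.1-fold. GFI1 and CSF2RB therefore share a positive leading feature but differ widely in its size, and that difference was not tested.

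The 4 largest ratios were fractions whose smaller term was small. Read as a natural log, each of the 6 ratios equalled a ratio of whole numbers to a relative tolerance of 1e-08. In lowest terms these were 103 to 2, 92 to 5 and 407 to 86 for CSF2RB, 262 to 15 for CSF3R, 49 to 5 for FPR2 and 983 to 499 for GFI1. Of the 3065 listed features under 20-fold, 86.1% equalled such a ratio with a smaller term of at most 500, against 0.359% with the log read in base 2. What the terms count is not stated, and a common factor would be lost, so they were not read as counts. The smaller term was 15 or less for the 4 features of 9.80-fold or more and 86 or more for the other 2. The share of all listed features with so small a term was not computed, so this is not read as a trait of these genes. A smaller term up to 10 was found for 3 of the 6, against 37.5% of all listed features.

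Along the genes, 5 of the 6 features lay towards the 3' side. Spans were those of RefSeq on GRCh38.p14, and whether a feature is in an exon, an intron or a UTR was not annotated here. The FPR2 feature ended 1043 nt before the 3' end of its 9352-nt span. The GFI1 feature lay 2186 nt from that end in a span of 13883 nt. In CSF2RB the distances were 2595, 2395 and 2245 nt. The CSF3R feature lay farther in, 7700 nt from the 3' end and 9522 nt from the 5' end of a span of 17272 nt. All but the CSF3R feature were thus within 3000 nt of the 3' end, a limit chosen after the distances were seen, against 41.7% of the 4240 listed features that could be placed in the span of their gene. As a share of the span counted from the 5' end, the features stood at 90.3%, 91.1% and 91.6% in CSF2RB, 88.8% in FPR2, 84.2% in GFI1 and 55.3% in CSF3R. Over the placed features of the table the median was 82.2% and the quartiles 49.4% and 95.1%, and all 6 positions lie between these quartiles. The 3 features of CSF2RB share a gene and a stretch, and do not count as 3 independent positions.

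**Figure D3:**
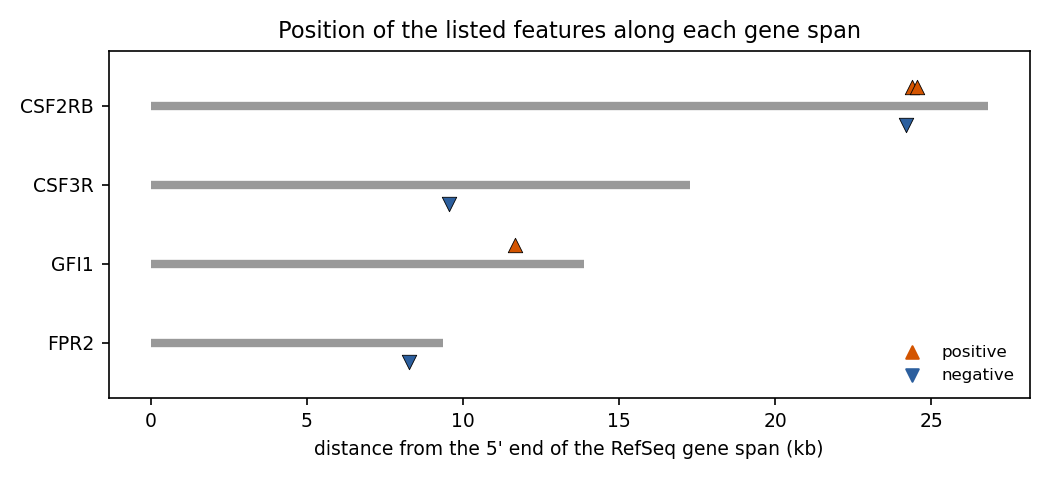
Grey bars are the RefSeq gene spans of the 4 genes drawn from the 5' end, in kb. Triangles mark the listed features, pointing up (orange) for positive and down (blue) for negative ratios. The features of CSF2RB, GFI1 and FPR2 lie near the right end of their bars and that of CSF3R near the middle.

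The features lay kilobases downstream of the gene starts. The nearest start in the RefSeq promoter table was 9121 nt upstream in CSF3R, 8536 nt in GFI1 and 6050 nt in FPR2, and the first CSF2RB feature lay 24167 nt from the 5' end of its span. At all 6 features the RefSeq table held 0 other gene spans. The closest listed feature of another gene was in MPST, 91329 nt from the last CSF2RB feature. For GFI1 it was in RPAP2 at 86370 nt, for FPR2 in ZNF175 at 181953 nt and for CSF3R in THRAP3 at 186960 nt.

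Other cytokine and growth factor receptors were mixed in sign. Besides CSF2RB and CSF3R, the authors' deposited table held 5 of the 33 receptors looked for, 3 positive and 2 negative by leading feature, with a median natural log ratio of 0.66. Over all listed genes 58.9% were positive and 41.1% negative, with a median of 0.93. The sign counts of the lists below stand beside the same background. The genes tested are unknown, so the share of a list that is listed has no background and is not read as high or low. The ligand-binding partners of CSF2RB (CSF2RA, IL3RA and IL5RA) and the M-CSF receptor CSF1R were not among the listed features. In the authors' deposited table IFNAR1, a type I interferon receptor chain, was positive at 78.5-fold. In the same list the authors' deposited table gave the interferon gamma receptor chain IFNGR2 a negative 1.97-fold feature. IL17RA, an interleukin-17 receptor chain, was led by a positive feature of 1.93-fold and held 2 further negative ones. IL6R, an interleukin-6 receptor chain, was positive at 27.1-fold by the authors' deposited table. TNFRSF1B was negative at 10.7-fold by the authors' deposited table. Set among these genes, CSF3R was the largest negative leading feature and CSF2RB the second largest positive one.

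Downstream of these receptors, 10 of 44 JAK-STAT and adaptor genes were listed, 5 positive and 5 negative, with a median of 0.10. JAK2, the kinase bound to CSF2RB and CSF3R, was negative at 4.88-fold by the authors' deposited table (p = 0.0033). That is opposite in sign to the leading feature of CSF2RB and alike in sign to that of CSF3R. JAK1, of the same list, was positive at 2.18-fold, opposite in sign to JAK2 and CSF3R. The smallest p-value of the list belonged to PIAS2, positive at 332-fold by the authors' deposited table. STAT3, STAT5A, STAT5B and SOCS3 were not among the listed features. The authors' deposited table placed the cytokine signalling suppressor SOCS7 at a negative 3.03-fold. SOCS5 was led by a positive 56.5-fold and also held a negative 2.21-fold ratio.

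Among chemotactic and inflammatory G protein-coupled receptors, 10 of 26 genes besides FPR2 were listed, 4 positive and 6 negative (against 58.9% and 41.1% of all listed genes), with a median of -0.65 against 0.93. FPR2 was negative too, and its relatives FPR1 and FPR3 were not among the listed features. Of its class, the complement receptor C5AR2 was positive at 81.5-fold and the chemokine receptor CCR2 negative at 121-fold by the authors' deposited table. The prostaglandin E2 receptors PTGER2 and PTGER4 were negative at 14.2-fold and 9.19-fold. S1PR4 was positive at 46.5-fold, P2RY2 at 2.66-fold and CXCR2 at 2.52-fold, and all 3 features of CXCR2 were positive. The remaining genes, C3AR1, CXCR4 and LTB4R2, were negative at 2.09-fold, 1.92-fold and 1.91-fold. The effectors of such receptors and the phagocyte oxidase had 7 of 38 genes listed, 4 positive and 3 negative, with a median of 0.94. ARRB1, an arrestin that uncouples receptors from G proteins, was led by a negative ratio of 4.21-fold by the authors' deposited table (p = 3.2e-06). It also held a negative ratio of 17.6-fold. GNA13 and ELMO1 were positive at 7.72-fold and 2.55-fold, and GRK3 was negative at 7.17-fold.

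The partners of GFI1 and the granulocytic transcription factors held 10 listed genes of 38 besides GFI1, 4 positive and 6 negative (against 58.9% and 41.1% of all listed genes), with a median of -0.81 against 0.93. RCOR1 and KDM1A, the corepressor and demethylase that GFI1 recruits, were negative at 3.87-fold and 2.43-fold by the authors' deposited table, opposite in sign to GFI1. By the authors' deposited table CEBPA, which drives granulocytic commitment, had positive features of 1.78-fold and 2.87-fold. SPI1, a regulator of the myeloid lineage, had a negative one of 2.38-fold. GFI1B, CEBPE and the GFI1 target ELANE were not among the listed features. In size GFI1 (1.97-fold) lay in the low range of this group, whose leading features ran up to 5.84-fold in RUNX1. Of the 14 features of the group, GFI1 included, 0 had a fold that was a multiple of 0.5 (within 1e-08 of it, relative), against 30.6% of the table. In the related lists the smallest such fold was 27.5 (TLR4), above every fold of this group. The 0 therefore goes with the small folds of the group and is not read as a separate trait.

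The remaining lists give the setting. Of 21 granule protein genes 3 were listed (2 positive, 1 negative, median 0.99), and MPO was not among them. Of 32 myeloid surface antigens 8 were listed (5 positive, 3 negative, median 0.87). SIRPA was led by a positive ratio of 88-fold by the authors' deposited table. It also held further positive features and a negative one of 4.09-fold. The leading fold of SIRPA was a multiple of 0.5, as were those of CSF2RB, IFNAR1, PIAS2, SOCS5, C5AR2, CCR2, S1PR4 and RGS19. Over all listed features 30.6% were such multiples, and the share over leading features alone was not computed. Of 9 markers of promyelocytic and granulocytic cells 2 were listed, CEBPA and SPI1, and of 30 lymphoid, erythroid and megakaryocytic markers 0. The table holds changes and no levels, so these counts do not check the identity of the cells.

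**Figure D4:**
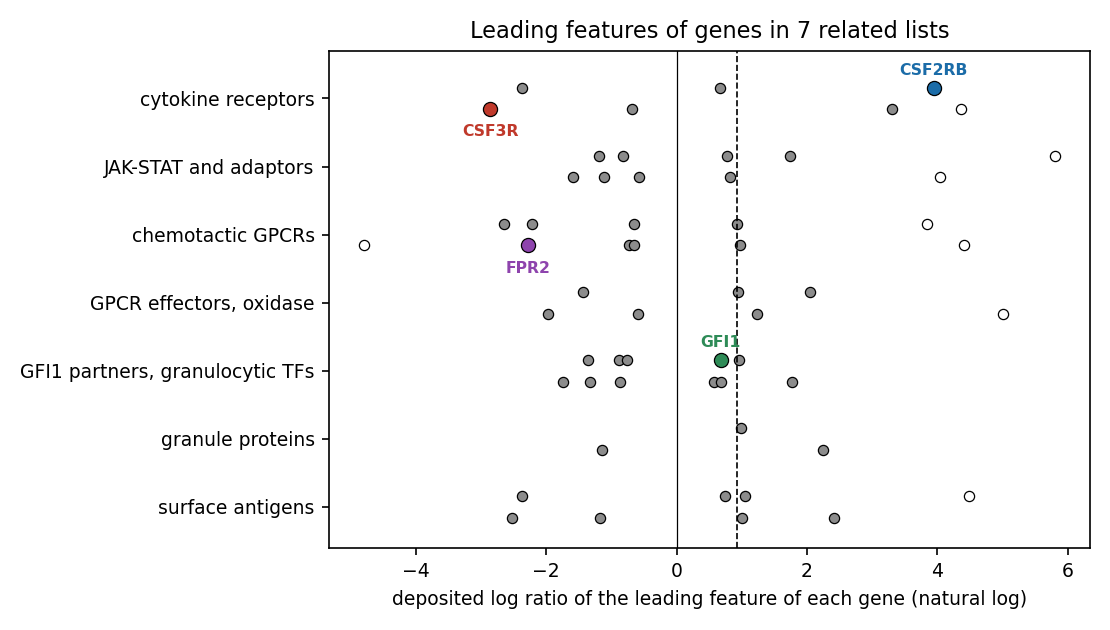
Each point is the leading feature (smallest p-value) of a listed gene in 7 related lists, by its deposited log ratio (natural log). Coloured points are CSF2RB, CSF3R, FPR2 and GFI1, open points are other genes whose fold is a multiple of 0.5 (relative tolerance 1e-08), the solid line is 0 and the dashed line is the median over all listed genes (0.93). Every list has points on both sides of 0.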

How the data were processed

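Input and m6A libraries of HL-60 cells were compared in a single table of features with position, strand, name, log ratio and p-value. The submitters' processing notes name STAR 2.7.3a and hg38, while the scoring tool, scaling and input correction are not stated. The deposited log ratio names no base and was read as a natural log, since exponentiated ratios were then ratios of whole numbers. Whether the deposited p-value is adjusted is not stated, and features tested but not listed are unknown, so no adjustment, test, set test or model was computed. Positions were read as 1-based on hg38 and set against RefSeq gene spans on GRCh38.p14, where all 4 symbols matched. No genome sequence was used.

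The members and the 8 related lists were chosen with earlier results of these data known. Named genes were the 4 members, genes drawn from the 5 with the smallest p-values in each list, and 19 relatives and partners of the members. Not all of the 5 are named in every list. RUNX1, JAK1, IL6R, TNFRSF1B, CXCR2, P2RY2, C3AR1, CXCR4, LTB4R2 and RGS19 were named after their values were seen. The 10 chromosome Y copies of chromosome X features were left out of positions and neighbour pairs. Python 3.11.15, pandas 2.3.3, numpy 2.4.6 and matplotlib 3.10.9 were used, and the ratio search was tested on simulated data.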

Additional observations from a re-analysis of the deposited data

How the results depend on the processing

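No paired analysis was possible because the table holds no value per library, and for the same reason no replicate could be left out. With the log ratio read in base 2 the folds were 7.53, 15.4 and 2.94 for CSF2RB, 7.26 for CSF3R, 1.60 for GFI1 and 4.86 for FPR2, with all 6 signs kept by construction. A fold that was a multiple of 0.5 was found for 1 of the 6 features at a relative tolerance of 1e-08 (30.6% of all listed features) and also at 1e-06. A fraction with a denominator up to 10 was found for 3 at either tolerance (37.5% of all listed features at 1e-08). With starts read as 0-based, the distances to the 3' end became 7701 nt for CSF3R and 2187 nt for GFI1 and the other 4 did not move. Without folds that were multiples of 0.5, JAK-STAT genes stood at 3 positive and 6 negative (5 and 5 with them), since PIAS2 dropped out and SOCS5 turned negative. Chemotactic receptor genes, FPR2 included, stood at 2 positive and 6 negative (4 and 7 with them). Counts of features by position in place of name, counts of signs among the members under every setting tried, and the other list counts stayed within 1.5 times. Within that limit the majority sign of the cytokine receptor genes, CSF2RB and CSF3R included, still changed. They stood at 3 positive and 4 negative by the largest absolute log ratio per gene, against 4 and 3 by the smallest p-value. Majorities were also lost without folds that were multiples of 0.5. Cytokine receptor genes then stood at 3 positive and 3 negative. The effectors of chemotactic receptors and the phagocyte oxidase stood at 3 and 3 (4 and 3 with them). Myeloid surface antigens stood at 4 and 4 (5 and 3 with them). Library depths are unknown.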
